A study of Ovis aries with 8 samples.

Results

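Prostaglandin genes in the hypothalamus of fetal sheep were followed through 5 members of the pathway: the cyclooxygenases PTGS1 and PTGS2, the prostaglandin D2 synthase PTGDS, the prostaglandin E2 receptor PTGER4 and the prostaglandin transporter SLCO2A1. Members were taken by name or description from the array design, which gave 5 of the 832 genes that could be named on the array. They had 7 of its 15008 probes: 1 each for PTGS1, PTGDS and SLCO2A1, and 2 each for PTGS2 and PTGER4. A probe was tested where 4 or more of the 8 arrays put it well above background, as held for 6 of the 7 and for 11748 of all probes. The exception was the second PTGS2 probe.

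Cyclooxygenases turn arachidonic acid into prostaglandin H2, which terminal synthases convert into the separate prostaglandins. PTGS1 is the broadly expressed form and PTGS2 the inducible form, which brain neurons also express at rest. PTGDS makes prostaglandin D2 and, as a secreted lipocalin, is abundant in meninges and choroid plexus. Prostaglandin E2 acts through a family of receptors, of which PTGER4 (EP4) raises cyclic AMP, and SLCO2A1 carries prostaglandins into cells for breakdown. In the late-gestation sheep fetus, prostaglandins made in the brain are known for their part in stress axis activity before birth.

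The arrays came from 4 sets of twin fetuses, 1 array per fetus. In each set, 1 fetus received estradiol-3-sulphate, the sulphate conjugate of estradiol, from a mini-pump that delivered 1 mg daily to a cerebral ventricle, and the co-twin was the control, called vehicle here. Arrays of infused fetuses are written E1 to E4 and those of vehicle fetuses V1 to V4. The design text calls the controls untreated and gives 7 to 12 days of infusion, while the treatment protocol gives saline and 7 to 10 days. Fetuses were operated on at 120 to 127 days of gestation and killed at 130 to 134 days, and the RNA was stored for 7 years before labelling. Gestational age and surgery are described alike for both groups, and no strain, allele or transgene is named.

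Levels are log2 processed intensities relative to the 75th percentile of the same array, and differences are estradiol sulphate minus vehicle on that log2 scale. The 75th percentile was 1597 to 2282 intensity units on the treated arrays and 981.5 to 1633 on the vehicle arrays, and V4 was the dimmest. Probes well above background made up 77.0% to 83.1% of each treated array and 67.8% to 77.3% of each vehicle array. All 8 arrays lay on 1 slide, treated ones under the first position index and vehicle ones under the other, so position and group cannot be told apart. Of 13 neuron genes of the hypothalamus listed as markers, 9 were named on the array and all 9 were tested. Their summed level ran from 13.7 to 42.4 times the 75th percentile in treated and from 21.9 to 35.6 in vehicle arrays. This sum is weighted to the brightest genes. Gene by gene, 6 differences were above 0 and 3 below, with a median of 1.02, beside 0.04 over all tested probes. Among the 6, AGRP and GHRH were well above background on 4 treated and only 2 vehicle arrays.

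The 2 PTGER4 probes are shown because they nearly coincide, so that they measure the same stretch of the transcript and are not independent. They are 60 bases long, start at positions 251 and 250 of the transcript the design lists, and share the 59 bases in capitals.

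PTGER4 probe 1: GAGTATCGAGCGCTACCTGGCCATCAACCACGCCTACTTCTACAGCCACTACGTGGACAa

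PTGER4 probe 2: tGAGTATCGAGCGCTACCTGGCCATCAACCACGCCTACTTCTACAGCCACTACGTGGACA

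Each probe of the pair thus reaches 1 base further than the other at one end. The PTGS2 probes, in contrast, start at positions 3301 and 3117 and share no run longer than 6 bases. All 7 probes are 60 bases long, and their share of G and C bases ran from 35.0% for PTGS2 probe 1 to 55.0% for both PTGER4 probes.

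No member passed after adjustment, and of the 11748 probes tested 0% were called at an adjusted p under 0.05 by limma. The smallest adjusted p on the array was 0.240. At an unadjusted p under 0.05, 6.24% of tested probes were higher after estradiol sulphate and 2.93% were lower, and 1 of the 6 tested member probes, PTGDS, was among the lower ones. In 3.29% of tested probes every treated array lay above every vehicle array and in 2.68% every one lay below. Again 1 member probe, PTGDS, was of the second kind and none of the first. Differences were above 0 for 4 of the 6 member probes and below 0 for 2, with a median of 0.23. Over all tested probes 58.1% were above 0, with a median of 0.04. The 4 include both PTGER4 probes, which are not independent. The share above 0 also changed with signal, over 5 equal bins of tested probes. It was 78.0% in the bin of the PTGER4 probes, 72.6% in that of PTGS2 and SLCO2A1, 64.0% in that of PTGS1 and 24.6% in that of PTGDS. After quantile normalization, with or without normexp background correction, 3 member probes were above 0 and 3 below. Scaling to the array median moved the median of all tested probes to -0.06 and that of the members to 0.13.

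**Figure D1:**
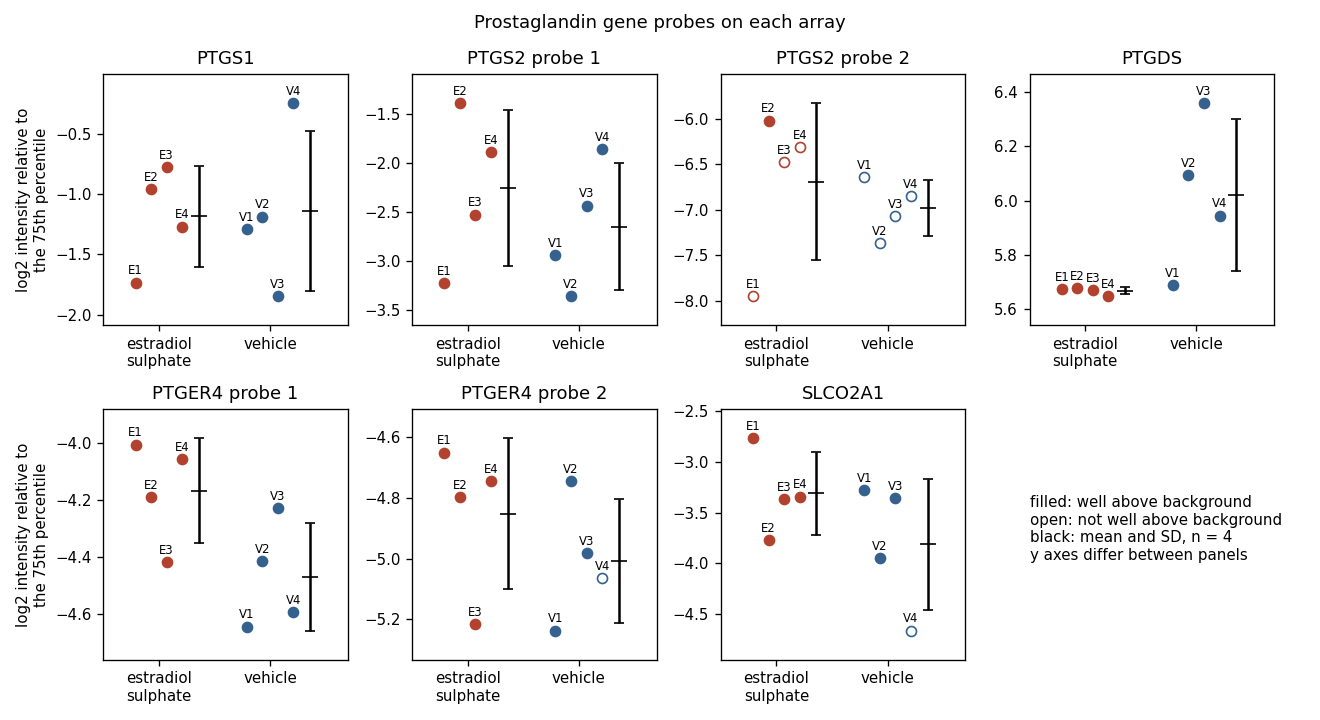
Level of each of the 7 probes on each array (y axis, log2 intensity relative to the 75th percentile of that array, scales differ between panels) for the 4 estradiol sulphate arrays (E1 to E4, red) and the 4 vehicle arrays (V1 to V4, blue). Filled points are well above background, open points are not, and black marks give the mean and SD of 4. PTGDS is the panel in which the groups do not overlap, with treated arrays between 5.65 and 5.68.

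PTGS1, the constitutive cyclooxygenase, was well above background on all 8 arrays, at 367.3 to 1335 intensity units. Its level was -1.73, -0.96, -0.77 and -1.27 on E1 to E4, and -1.29, -1.18, -1.84 and -0.25 on V1 to V4. The highest and the lowest array were both vehicle arrays, so the treated range lay within the vehicle range. Group means were -1.18 ± 0.42 and -1.14 ± 0.66 (SD, n = 4 each), and the difference was -0.04 (SE 0.33, 95% confidence interval -0.79 to 0.70, limma adjusted p = 0.986). V4 sets its sign: without that array the difference was 0.26. Without E1, the lowest treated array, it was 0.14.

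PTGS2, the inducible cyclooxygenase, was measured on all 8 arrays by its first probe. The level was -3.22, -1.39, -2.52 and -1.89 on E1 to E4, and -2.94, -3.35, -2.43 and -1.86 on V1 to V4. The groups overlapped, with E2 above all vehicle arrays and V2 below all treated arrays. Means were -2.25 ± 0.80 and -2.64 ± 0.65 (SD, n = 4 each), a difference of 0.39 (SE 0.42, 95% confidence interval -0.56 to 1.34, limma adjusted p = 0.837). Single arrays of both groups moved it: it was 0.10 without E2, 0.15 without V2, 0.65 without V4 and 0.71 without E1.

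The second PTGS2 probe was well above background on 1 array, E2. Its signal, in intensity units, was 6.957, 31.95, 25.56 and 20.09 on E1 to E4. On V1 to V4 it was 16.32, 9.14, 9.83 and 8.498. On 3 of the arrays this value is a surrogate that the scanner software put in place of a signal near background. No fold is given, since the probe was not well above background on any vehicle array and the bound on its fold is under 1. Both PTGS2 probes were highest on E2, and the second adds no measured level on the other arrays. The probes were far apart in level. On E2, where both were well above background, the first read 793.4 units and the second 31.95, or -1.39 and -6.02 as log2 level. The first probe read 147.5 to 793.4 units over all arrays, above every value of the second. Which of the probes better follows PTGS2 was not tested.

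PTGDS, the prostaglandin D2 synthase, was a bright probe, well above background on all 8 arrays and saturated on none. Its level was 5.67, 5.68, 5.67 and 5.65 on E1 to E4, and 5.69, 6.09, 6.36 and 5.94 on V1 to V4. All 4 treated arrays lay below all 4 vehicle arrays, though the highest treated array was only just below V1. Means were 5.67 ± 0.013 and 6.02 ± 0.28 (SD, n = 4 each). The difference was -0.35 (SE 0.15, 95% confidence interval -0.69 to -0.02), or 1.28-fold lower, with an unadjusted p of 0.0391 and an adjusted p of 0.537 by limma. The probe therefore did not pass.

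The separation of the PTGDS groups depended on how arrays were scaled. With arrays scaled to their median the difference was -0.46, and in the log2 values of the authors' deposited table it was also -0.46. All 4 treated arrays lay below all vehicle arrays in both. The deposited columns have medians of 0.058 to 0.075, so both scalings are nearly the same. After quantile normalization the difference was -0.14, after normexp background correction with quantile normalization -0.13 and after cyclic loess -0.12. No treated array lay below all vehicle arrays under these 3. Without V3, the highest, it was -0.24, with an unadjusted limma p of 0.108. PTGDS belonged to the brightest of 5 equal bins of tested probes, in which 24.6% of probes had a difference above 0 and the median difference was -0.12.

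**Figure D2:**
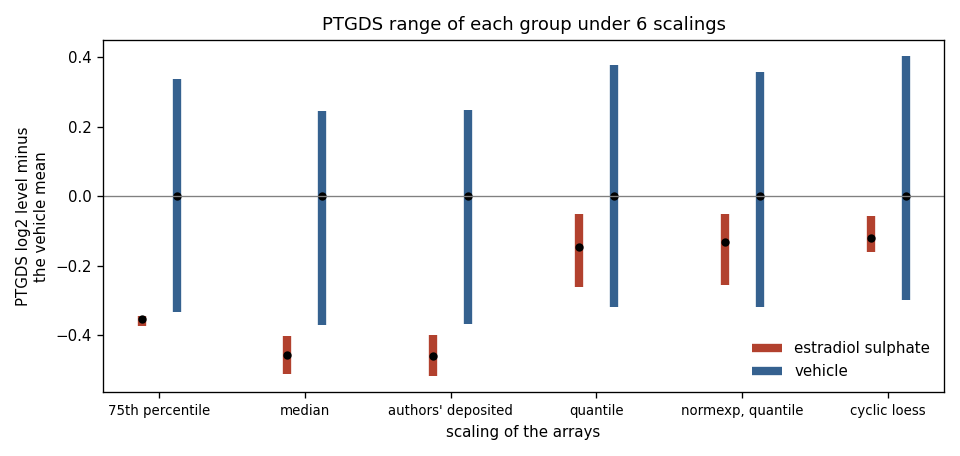
PTGDS under 6 scalings of the arrays (x axis), as the log2 level minus the vehicle mean of the same scaling (y axis). Bars run from the lowest to the highest of 4 arrays, red for estradiol sulphate and blue for vehicle, and black points are means. The bars are apart under the first 3 scalings, of which the median and the authors' deposited values are nearly the same. They overlap under quantile normalization, normexp with quantile normalization and cyclic loess.

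Before scaling, the PTGDS signal was 87504, 106079, 116245 and 80112 units on E1 to E4. On V1 to V4 it was 84251, 102861, 108221 and 60451. These intensities overlapped, and the treated arrays followed their own 75th percentile closely. Ordered by intensity among all 15008 probes, the PTGDS probe stood at places 101, 94, 100 and 112 on treated arrays and at places 114, 72, 62 and 121 on vehicle arrays. By place the treated arrays lay inside the vehicle range, with V3 and V2 highest, whereas by unscaled signal E3 was highest.

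In whole tissue, fewer cells of a type and less RNA per cell cannot be told apart. Of 8 oligodendrocyte markers listed, 0 were named on the array, so that cell type could not be followed. Of 6 choroid plexus markers, 2 were named on the array. Transthyretin (TTR), made by choroid plexus, was at -3.14, 0.27, 1.23 and 2.66 on E1 to E4, and at -0.57, -0.90, -0.69 and -0.41 on V1 to V4. The SD of TTR was 2.47 over treated and 0.21 over vehicle arrays, beside 0.013 and 0.28 for PTGDS with the same scaling. AQP1, the other marker, was well above background on no treated array. Of 9 markers of leptomeninges and fibroblasts, 5 were named and tested, but COL3A1 was well above background on 4 treated arrays and no vehicle array, so that its sign was favoured by the filter. The other 4 gave differences of 0.29 (SE 0.20) for COL1A2, 0.43 (SE 0.38) for DCN, 0.27 (SE 0.41) for ALDH1A1 and 1.51 (SE 0.67) for IGF2. The COL1A2 difference was below 0 after normexp with quantile normalization. The summed level of the 5 ran from 2.37 to 8.38 times the 75th percentile in treated arrays and from 2.51 to 5.69 in vehicle arrays. The part of any of these cell types in the PTGDS values was not tested.

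PTGER4, the EP4 receptor, was dim, and its first probe was well above background on all 8 arrays. The level was -4.01, -4.19, -4.42 and -4.06 on E1 to E4, and -4.65, -4.42, -4.23 and -4.60 on V1 to V4. Of the treated arrays, 3 lay above every vehicle array, and E3 lay within the vehicle range. Means were -4.17 ± 0.19 and -4.47 ± 0.19 (SD, n = 4 each), and the difference of 0.30 did not pass (SE 0.14, 95% confidence interval -0.02 to 0.63, limma adjusted p = 0.572). After cyclic loess it was 0.03. Both PTGER4 probes belonged to the dimmest of the 5 bins, in which 78.0% of probes had a difference above 0 and the median difference was 0.20.

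The second PTGER4 probe was well above background on 4 treated arrays and on 3 vehicle arrays, all but V4. Its level was -4.65, -4.80, -5.21 and -4.74 on E1 to E4, and -5.24, -4.74, -4.98 and -5.06 on V1 to V4. The groups overlapped, with 1 treated array above all vehicle arrays. The difference was 0.15 (SE 0.16, 95% confidence interval -0.21 to 0.52, limma adjusted p = 0.827), and its sign turned after quantile normalization, to -0.026. With single arrays left out it ran from 0.08 to 0.28.

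Over the 8 arrays the levels of the 2 PTGER4 probes gave Pearson's r = 0.787 (exact permutation p = 0.0309, two-sided) and Spearman's rho = 0.833 (exact permutation p = 0.0154), and this was the only pair tested. The probes share 59 bases and the scaling of each array, so some agreement was built in. These p-values are therefore not independent support for the PTGER4 levels. Without E1 and V1, the arrays farthest from the median, r was 0.576 over 6 arrays (exact permutation p = 0.244), so the test was no longer passed with these 2 arrays left out. Deviations of the 8 arrays from their own group means gave r = 0.790, as a description. After quantile normalization r over 8 arrays was 0.675 (exact permutation p = 0.0711).

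**Figure D3:**
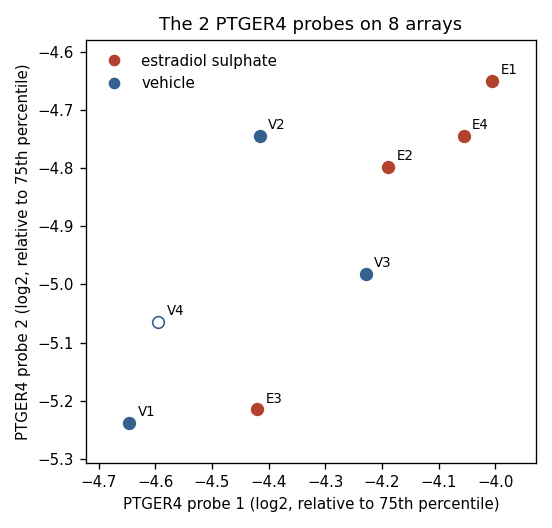
Level of PTGER4 probe 2 (y axis) against probe 1 (x axis) on each of the 8 arrays, both as log2 intensity relative to the 75th percentile, red for estradiol sulphate and blue for vehicle. The open point, V4, was not well above background for probe 2, and E1 and V1 lie at opposite ends.

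The array also carries 10 probes named EP4a to EP4f or described as such, none with prostaglandin in its description. They share at most 6 bases in a row with either PTGER4 probe. Of these, 7 were tested and none passed, with limma adjusted p of 0.544 to 0.755 and differences of 0.21 to 1.60, the highest from a dim probe well above background on 5 arrays. They were not counted as PTGER4.

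SLCO2A1, the transporter, had 1 probe printed in 5 spots per array. Its level was -2.76, -3.77, -3.37 and -3.34 on E1 to E4, and -3.28, -3.95, -3.36 and -4.67 on V1 to V4. E1 was above all vehicle arrays and V2 and V4 were below all treated arrays, while the others overlapped. Means were -3.31 ± 0.41 and -3.81 ± 0.64 (SD, n = 4 each), and the difference of 0.50 did not pass (SE 0.32, 95% confidence interval -0.22 to 1.23, limma adjusted p = 0.687). On V4 the probe was well above background in 2 of 5 spots, and without this array the difference was 0.22. It was 0.32 without E1.

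The SD of log2 level over the spots of 1 array, outlier spots left out, was 0.053 to 0.24. This is the spread of single spots and holds no difference between fetuses. A spot was marked as an outlier on E4, V2 and V3. After normexp background correction with quantile normalization the difference was 0.21.

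**Figure D4:**
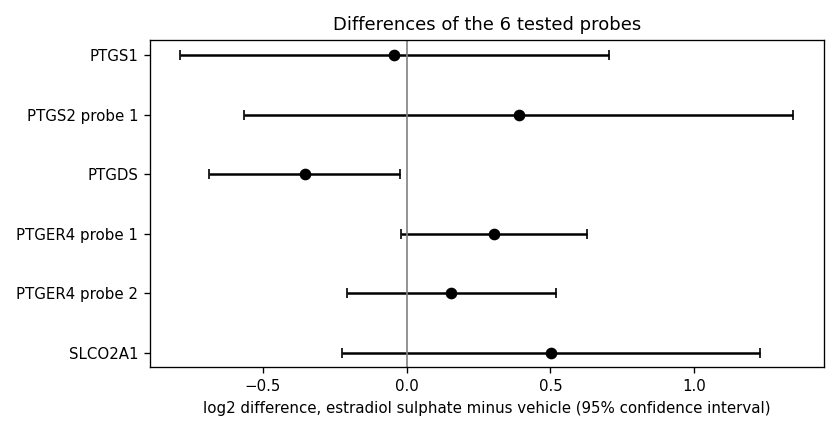
Difference in log2 level, estradiol sulphate minus vehicle (x axis), for the 6 tested member probes (y axis), with 95% confidence intervals from limma, unadjusted. The interval of PTGDS, -0.69 to -0.02, is the only one of the 6 that leaves out 0.

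Other genes of the pathway came from a list of 35, of which 6 were found on the array and 5 were tested. PTGER1 and AKR1C3 were named by hand from the descriptions of their probes, the first as EP1 and the second by likeness to a bovine enzyme, so these names are less certain. Differences were above 0 for 4 and below 0 for 1, with a median of 0.18 beside 0.04 over all tested probes. After cyclic loess 3 were above and 2 below, and none had an unadjusted limma p under 0.05 in the main fit. PTGER2, among the 4, was well above background on 4 treated arrays and 1 vehicle array, so its sign was favoured by the filter. With only probes well above background on all arrays, 3 were above 0, PTGER1 was below, and the median was 0.16. PTGER1, the EP1 receptor, which raises calcium, was at -2.76, -3.53, -3.50 and -3.38 on E1 to E4, and at -0.81, -2.85, -2.31 and -3.62 on V1 to V4. The vehicle arrays spread over a wider range than the treated ones and overlapped them, and the difference was -0.89 (SE 0.51) for this probe and -0.68 (SE 0.44) for its other probe. Without V1, the highest array at both probes, these were -0.37 and -0.22. Without V4, the lowest vehicle array at both, they were -1.30 and -0.97. PTGER3, the EP3 receptor, which lowers cyclic AMP, gave 0.14 (SE 0.11) and 0.15 (SE 0.11) at its 2 probes.

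PTGER2, the EP2 receptor, gave 0.23 (SE 0.13) at a probe well above background on 4 treated arrays and 1 vehicle array, and its other probe was not well above background on any array. PTGFR, the prostaglandin F receptor, gave 0.40 (SE 0.44), but 0.07 without E2, 0.15 without V2 and 0.79 without V4. PPARG, a nuclear receptor that prostaglandin D2 products can bind, gave 0.18 (SE 0.20), with a range of 0.06 to 0.33 when single arrays were left out. AKR1C3, which can make prostaglandin F, was well above background on 3 arrays and was not tested.

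Inducers and partners of cyclooxygenase came from a list of 9, of which 6 were named and 4 tested, with 3 differences above 0 and 1 below and a median of 0.35. Under 4 of the other scalings, quantile normalization being the exception, 2 were above and 2 below. NFKBIA, the inhibitor of NF-kappaB, was at 1.30, 0.42, 0.25 and 0.11 on E1 to E4, and at -0.23, -0.25, 0.07 and -0.24 on V1 to V4. All 4 treated arrays were above all 4 vehicle arrays, as in 3.29% of all tested probes. The difference of 0.68 (SE 0.24) did not pass after adjustment (limma adjusted p = 0.502). Without E1, the highest array, it was 0.42. The cytokine genes gave 0.61 (SE 0.38) for IL1A, 0.09 (SE 0.14) for IL1B and -0.33 (SE 0.26) for TNF. With single arrays left out they ran from 0.39 to 0.91, from -0.02 to 0.15 and from -0.48 to -0.10. The other IL1A probe gave -0.03 (SE 0.81), and 0.81 without V1. IL6 and the glucocorticoid receptor gene NR3C1 were well above background on 3 and 2 arrays and were not tested.

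For each member, the named probes of other genes with the highest Pearson's r of level over the 8 arrays were found among about 990 named probes, as a description. PTGS1 was most like NDUFA12 (r = 0.956), ACVR2A (0.882) and TXN (0.857). Among those most like PTGS2 were ITGAV (r = 0.930) and IL1A (0.912), and IL1A is an inducer of PTGS2 from the list above. PTGDS was most like AVPR1B (r = 0.917), FGF1 (0.858) and DBP (0.850). Among those most like PTGER4 were IGFBP1 (r = 0.911) and KRTAP4.3 (0.881), and SLCO2A1 was most like CSNK1D (r = 0.935), ACTG1 (0.930) and ITGB5 (0.918). All these levels share the scaling of each array.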

How the data were processed

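Scanner files held processed spot intensity, which is background-subtracted and detrended within each array but not normalized between arrays, per the file headers (Agilent Feature Extraction 10.1.1.1). Log2 values in a table the authors deposited served as an alternative. For the 50 probes with 5 spots it holds the first spot, within 0.001. Without control and outlier spots, each probe was the mean of its spots, on a log2 scale minus the 75th percentile of its array. Probes well above background on at least 4 of 8 arrays were tested with limma 3.58.1 in R 4.3.3 (group as the only term, Benjamini-Hochberg over all 11748 probes), a procedure tested on simulated data. The simulated data had independent noise and planted changes larger than any member difference, so smaller changes were not covered. Each fetus was a replicate, so precision is limited by 4 arrays per group. Names came from the array design, updated through RefSeq (ARS-UI_Ramb_v3.0, names only). Members and lists were chosen with earlier results of these data known. Text names every member probe, listed pathway genes and, per member, the 3 likest named probes of its brightest tested probe, of which some are not reported here. CYP4F21 and TC1718, described on the array with prostaglandin, were noticed after values were seen.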

Additional observations from a re-analysis of the deposited data

How the results depend on the processing

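No member probe passed after adjustment under any alternative tried. PTGDS, PTGER4 probe 1, PTGS2 probe 1 and SLCO2A1 kept their sign under every alternative that could move it. Their differences ran over -0.46 to -0.12, 0.03 to 0.39, 0.10 to 0.71 and 0.21 to 0.68. Another filter on dim probes, a replicate block or an intensity trend in the limma variance cannot move a difference, so these say nothing about sign. PTGS1 turned without estradiol sulphate replicate 1 (0.14) and without vehicle replicate 4 (0.26), and ran from -0.28 to 0.26 when single arrays were left out. PTGER4 probe 2 turned after quantile normalization (-0.026) and after normexp with quantile normalization (-0.033). Agreement of the PTGER4 probes weakened to r = 0.675 after quantile normalization and to 0.576 without 2 arrays. The SLCO2A1 alternatives on spots, chosen after seeing the data, gave 0.44 with all 5 spots and 0.61 with the first.

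Equal replicate numbers are not said to mark co-twins, so the numbers were not taken as pairs in the main fit. Deviations of same-numbered arrays correlated at 0.237, -0.014, 0.191 and 0.247. Arrays of unlike number were not compared, so these values cannot decide whether the numbers mark pairs. With a replicate block the difference was -0.35 for PTGDS and 0.50 for SLCO2A1, as in the main fit, since a balanced block cannot move it. In that fit the unadjusted limma p was 0.0498 and 0.0666, and no member passed after adjustment.

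Probes higher at an unadjusted p under 0.05 numbered 733, and 396 after quantile normalization, 424 after normexp, 448 after cyclic loess, 345 with median scaling, 344 in the deposited log2 values, 477 with probes well above background on all arrays and 474 without vehicle replicate 2. Lower ones numbered 344, and 753 with median scaling, 760 in the deposited values, 1185 with no filter on dim probes and 178 without estradiol sulphate replicate 2. The causes were not tested. Dim signal limits PTGER4 probe 2, the second PTGS2 probe and SLCO2A1 on vehicle replicate 4.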

Other observations

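CYP4F21, described on the array as a prostaglandin omega-hydroxylase, gave a difference of 0.14 (SE 0.12, limma adjusted p = 0.784), and TC1718, described as like a prostaglandin F synthase, was not well above background on any array. Both were picked after their values were seen.

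The SD of PTGDS level over the 4 treated arrays, 0.013, was smaller than the scanner software's own error for the probe, a median of 0.144 on the log2 scale. With arrays scaled as in the main fit, only 6 of 11748 tested probes (0.0511%), PTGDS included, had a treated SD as small. In the brightest of 5 equal bins of tested probes, scaled alike, the median SD was 0.162 over treated and 0.198 over vehicle arrays. The treated SD of PTGDS was larger under the other scalings. It was 0.052 with median scaling, 0.057 in the deposited log2 values and 0.045 after cyclic loess. After quantile normalization it was 0.086, and 0.087 after normexp with quantile normalization. How rare these larger values are among tested probes was not tested. PTGDS was singled out here after its values were seen.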
